A study of Mus musculus with 15 samples.

Results

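The genes described here are the matrix metalloproteases (Mmps), the Adamts and Adamts-like proteins, and the tissue inhibitors of metalloproteases (Timps) measured in mouse aortic valve leaflets. They were chosen by gene name, with earlier results of these data known. Of the 18073 genes in the deposited table, 44 matched: 18 Mmps, 4 Timps, 17 Adamts proteases and 5 Adamts-like genes. Of these, 22 reached 10 FPKM, the unit of the table, in at least 1 group, 16 reached between 1 and 10, and 6 stayed under 1 in every group. RNA was sequenced from the leaflets of C57BL/6 mice aged 2 months, with 3 leaflets and 1 library per mouse. Generation 2 Terc-/- mice, which have shortened telomeres, gave 4 libraries labelled Notch1 heterozygous and 3 labelled Notch1 wild type. Mice with intact Terc and long telomeres gave 4 heterozygous and 4 wild type libraries. In every group, collagenase acted on the leaflets for 20 minutes (37 °C) ahead of RNA isolation. The labels do not describe the Notch1 allele. The study addressed whether telomere length alters the consequences of losing 1 copy of Notch1.

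Mmps are zinc proteases that cut collagens, gelatin, elastin and other matrix proteins, and most are secreted as inactive precursors. Adamts proteases are secreted zinc enzymes with thrombospondin repeats that cut proteoglycans such as versican and aggrecan, trim procollagens or act on microfibrils, while Adamts-like proteins share the repeats and lack the protease domain. Timps bind the active sites of Mmps and, in the case of Timp3, of some Adamts enzymes. The aortic valve leaflet is a thin layered matrix of collagen, proteoglycan and elastin, and turnover of that matrix by these enzymes is part of valve remodelling and of valve disease.

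The table gives 1 pooled FPKM value per gene and group (fragments scaled by transcript length and by the fragments of the library), so the spread between mice and the read depth are unknown and no value carries an error. FPKM is per transcript length, and levels can be set side by side between genes. A log2 fold below is the difference of log2(FPKM + 1) between groups, which understates changes of genes with low values. A gene is said to have risen or fallen only where the authors' deposited table calls it different in that comparison. The level of Terc, the RNA of telomerase, was given as 0 in each short-telomere group. It was 4.52 FPKM in heterozygous and 1.42 FPKM in wild type valves with long telomeres. Notch1 stood at 23.3 and 16.6 FPKM in the short-telomere groups labelled heterozygous and wild type, and at 25.1 and 39.1 FPKM in heterozygous and wild type valves with long telomeres. With short telomeres the order of Notch1 went against the labels, and those groups are therefore called by their labels. All 12 markers of valve interstitial cells and fibroblasts and all 12 endothelial markers were above 0 in every group, as were all 10 markers of heart muscle cells. Mitochondrially encoded genes took 33% and 30.5% of the summed FPKM in the short-telomere groups labelled heterozygous and wild type, and 9.52% and 13.9% in heterozygous and wild type valves with long telomeres.

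Of the 44 genes, 7 were called in 1 comparison each in the authors' deposited table and 37 in none. Timp4, Mmp8 and Mmp9 rose and Adamts17 fell in short-telomere valves labelled Notch1 wild type against wild type valves with long telomeres. Adamts8 rose in the short-telomere valves labelled heterozygous against those labelled wild type. Mmp3 rose and Adamts19 fell in the short-telomere valves labelled heterozygous against wild type valves with long telomeres, referred to below as both labelled changes against neither. With short against long telomeres in the groups labelled wild type, 4 of the 44 were called, where 0.686% of all 18073 genes were (0.437% higher and 0.249% lower). Both labelled changes against neither gave 2 called members beside 0.526% of all genes (0.216% higher and 0.31% lower). The Notch1 labels with short telomeres gave 1, which was higher, beside 0.476% of all genes (0.116% higher). No member was called for the Notch1 genotypes with long telomeres, where 0.415% of all genes were, or for short against long telomeres in the groups labelled heterozygous, where 0.432% were.

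**Figure D1:**
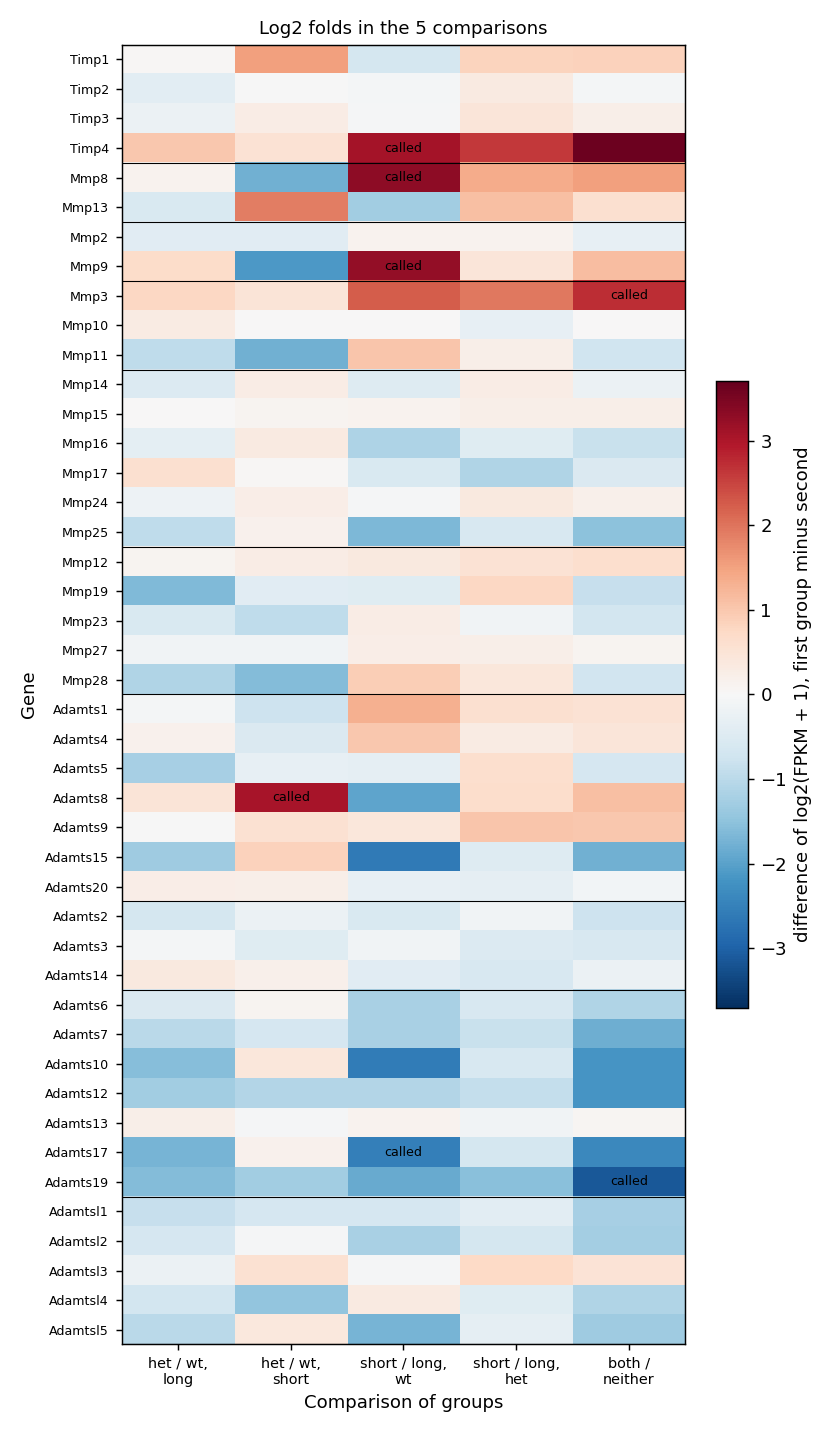
Log2 folds of the 44 genes (rows, by family) in the 5 comparisons (columns), as log2(FPKM + 1) of the first group minus that of the second, with the authors' calls written in the cells. Red is higher in the first group; het and wt are the Notch1 labels, and short and long the telomere settings. The 7 calls stand in 3 of the columns, and the Adamts rows are mostly blue in the column of both labelled changes against neither.

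Inhibitors were the most abundant class. The 4 Timps summed to 886 and 687 FPKM in the short-telomere valves labelled heterozygous and wild type, and to 623 and 729 FPKM in heterozygous and wild type valves with long telomeres. The 18 Mmps summed to 255 and 315 FPKM in the short-telomere valves labelled heterozygous and wild type, against 186 and 262 FPKM in the long-telomere heterozygous and wild type valves. The Timp sum was thus 3.48 and 2.18 times the Mmp sum with short telomeres (labelled heterozygous and wild type), and 3.35 and 2.78 times with long (heterozygous and wild type). The 17 Adamts proteases summed to between 94.4 and 164 FPKM, and the 5 Adamts-like genes to between 45.6 and 83.8 FPKM, with the wild type long-telomere group highest for both.

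**Figure D2:**
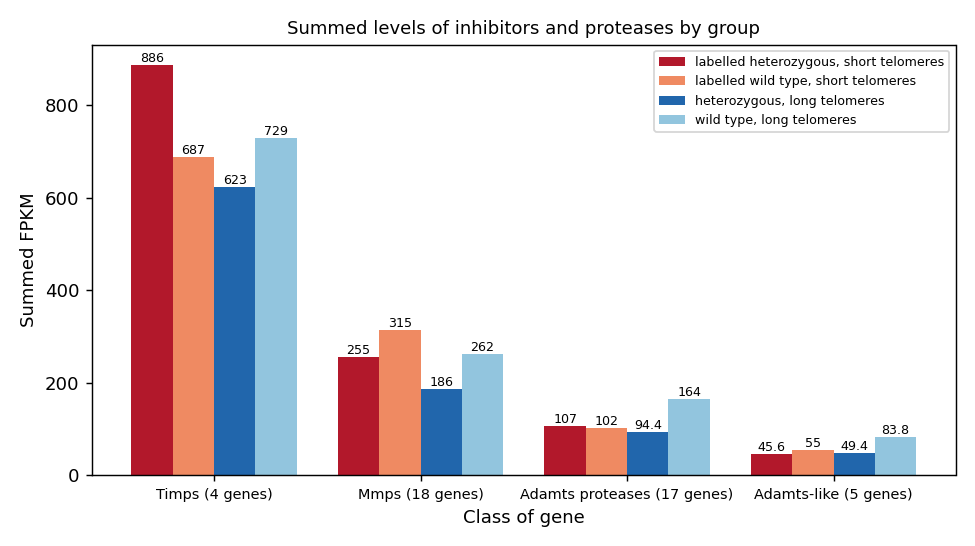
Summed FPKM (vertical axis, from 0) of the 4 Timps, 18 Mmps, 17 Adamts proteases and 5 Adamts-like genes, with 1 bar per group and no error, since each group has 1 pooled value. Timps exceed the Mmps in every group, and the wild type long-telomere bar is the highest for Adamts proteases, at 164 FPKM.

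Timp3, the inhibitor that is held in the matrix, was the highest of the 44 genes in each group. It stood at 480.3 and 396 FPKM in the short-telomere valves labelled heterozygous and wild type, and at 355 and 409 FPKM in heterozygous and wild type valves with long telomeres, between rank 96 and rank 128 of all genes. Timp2, which also takes part in the activation of pro-Mmp2, was about as even, at 218 and 219 FPKM in the short-telomere valves labelled heterozygous and wild type and 173 and 229 FPKM in the long-telomere heterozygous and wild type valves. Neither gene differed by as much as 2-fold in any comparison, and the directions of Timp3 and Timp2 with telomere length in the groups labelled wild type, and of Timp2 for both labelled changes, turned with the scaling. Timp1, the inducible member, was at 165 and 57 FPKM in the short-telomere valves labelled heterozygous and wild type, a log2 fold of 1.51 without a call. With long telomeres it was at 92.3 and 90.0 FPKM in heterozygous and wild type valves. In the build GRCm38, 21.3% of the exon bases of Timp3 and 1.53% of those of Timp4 overlap exons of synapsin genes on the other strand, Syn3 and Syn2. The libraries do not keep the strand, and the highest group values of Syn3 and Syn2 were 2.26 and 0.794 FPKM.

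Timp4, the inhibitor best known from heart and fat, varied most among the inhibitors. It was at 22.6 and 15.2 FPKM in the short-telomere valves labelled heterozygous and wild type, against 2.87 and 0.921 FPKM in heterozygous and wild type valves with long telomeres. Both short-telomere groups were above both long-telomere groups. In the groups labelled wild type the rise was 16.5-fold on the plain FPKM ratio. Its log2 fold was 3.08, and it was called in the authors' deposited table. In the groups labelled heterozygous the log2 fold was 2.61 and for both labelled changes against neither 3.62, both without a call. The 10 heart muscle markers summed to 6696 and 4487 FPKM in the short-telomere valves labelled heterozygous and wild type, and to 5320 and 3737 FPKM in heterozygous and wild type valves with long telomeres. For short against long telomeres, their median log2 fold was 0.05 in the groups labelled wild type, with 3 of 10 lower. In those labelled heterozygous the median was 0.26, with 1 of 10 lower. For both labelled changes against neither it was 0.64, with all 10 higher. The 7 fat cell markers summed to 638 and 315 FPKM in the short-telomere valves labelled heterozygous and wild type, against 178 and 114 FPKM in heterozygous and wild type valves with long telomeres. Most of that sum was Fabp4, which endothelium also expresses, at 626 and 278 FPKM in the short-telomere valves labelled heterozygous and wild type. For short against long telomeres in the groups labelled wild type, all 7 fat cell markers were higher and 6 were at least 2-fold higher on the log2(FPKM + 1) scale, with none called. In the groups labelled heterozygous 4 of the 7 were lower with short telomeres, with a median log2 fold of -0.36. For both labelled changes against neither 5 of the 7 were lower, with a median of -0.30. Adipoq, the hormone adiponectin of fat cells, was listed at 0 in the short-telomere valves labelled heterozygous and at 2.75 FPKM in those labelled wild type, against 0.283 and 0.232 FPKM in heterozygous and wild type valves with long telomeres. The part of other cells in the Timp4 levels was not tested, and in such bulk samples fewer cells of a type and less RNA per cell cannot be told apart.

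**Figure D3:**
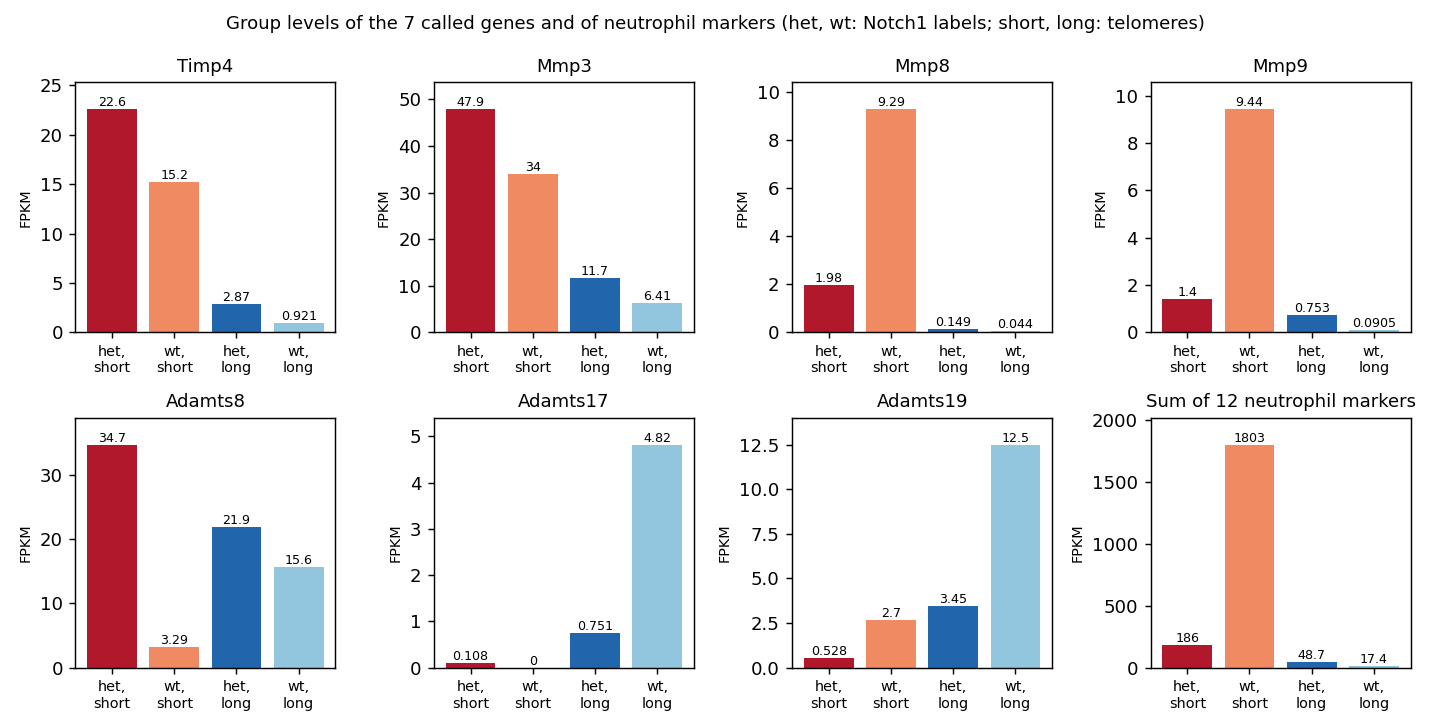
Pooled FPKM (vertical axes, from 0, each panel with its own scale) in the 4 groups for the 7 called genes, and the summed FPKM of 12 neutrophil markers in the last panel. Timp4 and Mmp3 are higher in both short-telomere groups, Mmp8 and Mmp9 stand out in the group labelled wild type with short telomeres, as the neutrophil sum does, and Adamts17 and Adamts19 are highest in wild type valves with long telomeres.

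Among the collagenases, Mmp8 is the enzyme of neutrophil granules, and the gelatinase Mmp9 is likewise abundant in neutrophils. Mmp8 was at 1.98 and 9.29 FPKM in the short-telomere valves labelled heterozygous and wild type, against 0.149 and 0.044 FPKM in heterozygous and wild type valves with long telomeres. For Mmp9 the values were 1.4 and 9.44 FPKM in the short-telomere valves labelled heterozygous and wild type, and 0.753 and 0.0905 FPKM in the long-telomere heterozygous and wild type valves. Both genes had a single high group, the short-telomere valves labelled wild type. They rose there against long-telomere wild type valves in the authors' deposited table, with log2 folds of 3.30 for Mmp8 and 3.26 for Mmp9. On the plain FPKM ratio this was 211-fold and 104-fold, over levels under 0.1 FPKM in long-telomere wild type valves. In the short-telomere valves labelled heterozygous both were lower than in those labelled wild type, by log2 folds of -1.79 for Mmp8 and -2.12 for Mmp9 without a call.

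Summed neutrophil markers were highest in the same group. The 12 markers, which do not include Mmp8 or Mmp9, summed to 186 and 1803 FPKM in the short-telomere valves labelled heterozygous and wild type, against 48.7 and 17.4 FPKM in heterozygous and wild type valves with long telomeres. All 12 were at least 2-fold higher with short telomeres in the groups labelled wild type and 7 were called in the authors' deposited table. In wild type valves with long telomeres 4 of the 12 were listed at 0. The defining markers S100a8, S100a9 and Retnlg were at 892, 648 and 163 FPKM in the short-telomere valves labelled wild type, against 4.99, 6.41 and 0.088 FPKM in long-telomere wild type valves. Of the 12 markers, 10 were lower in the short-telomere group labelled heterozygous than in that labelled wild type, while Ly6g (3.61 against 2.69 FPKM) and Lcn2 (10.6 against 8.89 FPKM) were higher in it. The part of neutrophils in the Mmp8 and Mmp9 levels was not tested. Mmp25, the membrane-type leukolysin first described in leukocytes, did not have this order: it was at 0.145 and 0.0335 FPKM in the short-telomere valves labelled heterozygous and wild type, and at 0.715 and 2.28 FPKM in the long-telomere heterozygous and wild type valves.

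Mmp13, the main rodent collagenase of connective tissue, had a different pattern from Mmp8. It stood at 13.9 and 3.05 FPKM in the short-telomere valves labelled heterozygous and wild type, and at 5.83 and 8.98 FPKM in heterozygous and wild type valves with long telomeres. The short-telomere valves labelled heterozygous were the highest group and those labelled wild type the lowest, a log2 fold of 1.88 without a call. Mmp2, the gelatinase of fibroblasts and the most abundant Mmp, was at 102 and 138 FPKM in the short-telomere valves labelled heterozygous and wild type and at 93.2 and 126 FPKM in the long-telomere heterozygous and wild type valves. Between 40.1% and 50.1% of the summed Mmp FPKM of each group was Mmp2. Its log2 fold for the Notch1 labels was -0.43 in both telomere settings. Its fold for telomere length in the groups labelled wild type was 0.13 as deposited and -0.01 without mitochondrial genes in the total.

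Mmp3, stromelysin-1, which cuts proteoglycans and activates other Mmps, was the other called gene of the secreted Mmps. It was at 47.9 and 34 FPKM in the short-telomere valves labelled heterozygous and wild type, against 11.7 and 6.41 FPKM in heterozygous and wild type valves with long telomeres. Both short-telomere groups were above both long-telomere groups, and the group labelled heterozygous was the higher within each setting. Mmp3 rose with both labelled changes against neither, with a log2 fold of 2.72 and a call in the authors' deposited table. On the plain FPKM ratio this was 7.46-fold. Short against long telomeres gave log2 folds of 2.24 in the groups labelled wild type and 1.94 in those labelled heterozygous without a call. Mmp3 held 18.8% and 10.8% of the summed Mmp FPKM in the short-telomere valves labelled heterozygous and wild type, against 6.31% and 2.45% in the long-telomere heterozygous and wild type valves. The 12 markers of valve interstitial cells and fibroblasts had means of 7.20 and 7.47 on the log2(FPKM + 1) scale in the short-telomere groups labelled heterozygous and wild type, and of 7.31 and 7.54 in heterozygous and wild type valves with long telomeres. Of the 12, Thy1 was at 216 FPKM in heterozygous valves with long telomeres, which raises that mean. It was at 24.3 and 32.1 FPKM in the short-telomere groups labelled heterozygous and wild type and 43 FPKM in long-telomere wild type valves. For short against long telomeres, 8 of the 12 were higher in the groups labelled heterozygous, with a median log2 fold of 0.13. In those labelled wild type 7 of the 12 were lower, with a median of -0.10. Macrophage and monocyte markers summed to 2933 and 1486 FPKM in the short-telomere valves labelled heterozygous and wild type, against 1630 and 1131 FPKM in the long-telomere heterozygous and wild type valves. Lyz2 was the highest of these markers, at 1839 and 999 FPKM in the short-telomere valves labelled heterozygous and wild type and 921 and 554 FPKM in the long-telomere heterozygous and wild type valves. For short against long telomeres in the groups labelled wild type, 8 of the 12 markers were lower, with a median log2 fold of -0.19, and for short labelled heterozygous against long wild type 10 of 12 were higher, with a median of 1.14. Their part in the Mmp3 level was not tested. Of the other stromelysins, Mmp10 was listed at 0 in every group but heterozygous valves with long telomeres, where it was at 0.22 FPKM.

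Mmp13, Mmp12, Mmp3, Mmp10, Mmp8 and Mmp27 lie in a run on chromosome 9, with 1 other protein-coding gene between Mmp12 and Mmp3. Such Mmp promoters are known for an AP-1 element, the site of Fos and Jun proteins, close to a TATA box. The 250 bases before the start of the 2 called genes of the cluster and of 3 neighbours are shown, with the AP-1 letters TGAGTCA in capitals where they stand on either strand. Sequences are from RefSeq on GRCm38.p6, all on the plus strand, 5′ to 3′, and the build named in the submitters' processing notes, mm9, is another.
Mmp13, chr9:7272264-7272513: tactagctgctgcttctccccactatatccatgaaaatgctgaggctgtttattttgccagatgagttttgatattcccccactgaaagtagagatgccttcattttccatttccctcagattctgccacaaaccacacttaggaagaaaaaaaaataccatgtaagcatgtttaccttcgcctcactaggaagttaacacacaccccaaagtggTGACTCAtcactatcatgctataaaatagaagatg
Mmp12, chr9:7347124-7347373: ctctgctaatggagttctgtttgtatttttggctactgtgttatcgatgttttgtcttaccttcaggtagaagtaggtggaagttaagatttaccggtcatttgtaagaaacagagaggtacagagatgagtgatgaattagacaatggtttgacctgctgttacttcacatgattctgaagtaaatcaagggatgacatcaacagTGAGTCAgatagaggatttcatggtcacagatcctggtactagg
Mmp3, chr9:7445572-7445821: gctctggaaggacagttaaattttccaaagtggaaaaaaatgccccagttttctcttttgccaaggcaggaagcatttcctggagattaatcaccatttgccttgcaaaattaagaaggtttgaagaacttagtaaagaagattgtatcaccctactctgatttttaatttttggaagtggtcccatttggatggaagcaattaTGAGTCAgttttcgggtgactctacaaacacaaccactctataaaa
Mmp10, chr9:7502092-7502341: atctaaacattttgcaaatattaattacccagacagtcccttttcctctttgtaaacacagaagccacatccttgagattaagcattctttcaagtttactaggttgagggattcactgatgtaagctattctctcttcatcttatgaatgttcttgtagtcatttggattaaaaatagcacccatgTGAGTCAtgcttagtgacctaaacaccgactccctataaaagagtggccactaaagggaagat
Mmp8, chr9:7558179-7558428: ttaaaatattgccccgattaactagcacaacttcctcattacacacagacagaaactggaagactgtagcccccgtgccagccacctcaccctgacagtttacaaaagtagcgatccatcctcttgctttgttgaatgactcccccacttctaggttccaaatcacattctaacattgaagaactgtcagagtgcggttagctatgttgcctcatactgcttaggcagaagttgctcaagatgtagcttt

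These letters, searched on both strands, stood in the windows of Mmp3, Mmp10, Mmp12 and Mmp13, 4 of the 30 members that had a window, and in none of the other 26. Of all 27025 genes with a window 5.16% held them. In Mmp3 they began 46 bases before the start, in Mmp10 63, in Mmp12 44 and in Mmp13 35 bases, and a further window of Mmp12 held none. The window of Mmp8 had no match, which says only that these letters are not in it. The letters of a TATA box, searched as TATAAA on both strands, were present in 5 of the 30 members beside 14.3% of all genes with a window, among them Mmp3, Mmp10 and Mmp13. The PEA3 motif of Ets factors, searched as AGGAAG on both strands, was present in 10 of the 30 beside 32.3% of all genes. The 4 genes with the AP-1 letters did not all have the same order of groups, and a part of AP-1 in their levels was not tested. Mmp3 and Mmp12 were each higher in both short-telomere groups than in both long-telomere groups, by less than 2-fold for Mmp12. Mmp10 was listed at 0 in most groups, so its order cannot be read. Mmp12, the macrophage elastase, stood at 10.1 and 8.23 FPKM in the short-telomere valves labelled heterozygous and wild type and at 6.66 and 6.19 FPKM in the long-telomere heterozygous and wild type valves, and Mmp13 had its highest and lowest values in the 2 short-telomere groups.

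The membrane-type Mmps hardly moved where they were abundant. Mmp14, which activates pro-Mmp2 at the cell surface, stood at 33.4 and 27.5 FPKM in the short-telomere valves labelled heterozygous and wild type, and at 27.4 and 39.2 FPKM in heterozygous and wild type valves with long telomeres. Its folds stayed under 2-fold in all 5 comparisons, as did those of Mmp15 at 3.3 to 3.98 FPKM. Mmp16, Mmp17, Mmp24 and Mmp25 were under 3 FPKM in every group. All 4 were under 1 FPKM in both short-telomere groups. Exons of BC029722 on the opposite strand overlap 13.6% of the exon bases of Mmp24 in GRCm38. BC029722 was at 9.73 to 24.5 FPKM over the groups, and its share of the Mmp24 reads was not tested.

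Of the remaining Mmps, Mmp11, Mmp23 and Mmp28 shared their highest group, the short-telomere valves labelled wild type. Mmp11, stromelysin-3, was at 2.54 and 11.1 FPKM in the short-telomere valves labelled heterozygous and wild type, and at 2.04 and 4.87 FPKM in the long-telomere heterozygous and wild type valves. Mmp28, epilysin, was at 4.56 and 15.9 FPKM in the short-telomere valves labelled heterozygous and wild type and at 3.16 and 8.01 FPKM in the long-telomere heterozygous and wild type valves. In both telomere settings the groups labelled heterozygous were lower, with log2 folds of -1.77 (short) and -0.95 (long) for Mmp11 and -1.61 and -1.12 for Mmp28, none called. Mmp23, at 19.1 and 37.4 FPKM in the short-telomere valves labelled heterozygous and wild type and 20.8 and 30.9 FPKM in the long-telomere heterozygous and wild type valves, was also lower in the heterozygous group of each setting, with smaller folds. Mmp19 was lowest in heterozygous valves with long telomeres, at 6.33 FPKM against 21.7 FPKM in wild type, and stood at 11.5 and 15.7 FPKM in the short-telomere valves labelled heterozygous and wild type. In GRCm38, exons of a protein-coding gene on the opposite strand overlap 22.3% of the exon bases of Mmp19, and those of an antisense gene 6%. Such overlaps cover 12% of those of Mmp28 and 5.58% of those of Mmp11, and without strand these reads cannot be told apart. The overlapping protein-coding gene of Mmp19 had 3.39 to 4.93 FPKM over the groups, and the overlapping gene of Mmp28 had 0.879 to 7.24 FPKM. Mmp27 stayed under 0.5 FPKM.

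**Figure D4:**
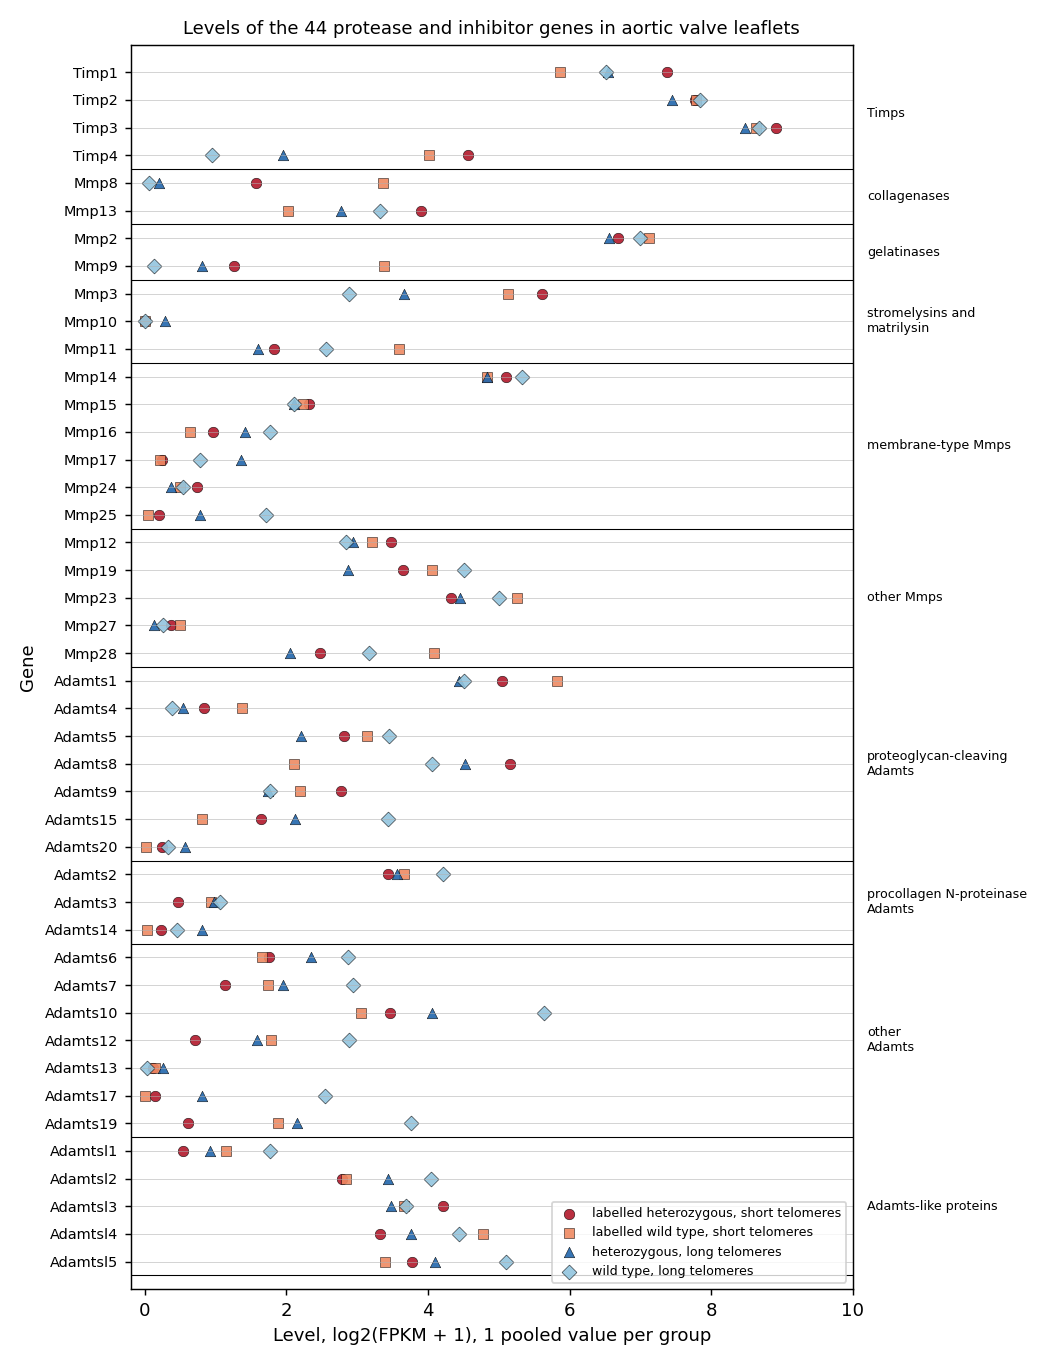
Level of each of the 44 genes on the log2(FPKM + 1) scale (horizontal axis), 1 symbol per group, with the genes grouped by family. Timp3, Timp2, Timp1 and Mmp2 lie farthest to the right, and in the family of other Adamts genes the wild type long-telomere symbol is the highest for each gene but Adamts13.

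Adamts8 was the proteoglycan-cleaving Adamts with a call. It stood at 34.7 and 3.29 FPKM in the short-telomere valves labelled heterozygous and wild type, and at 21.9 and 15.6 FPKM in heterozygous and wild type valves with long telomeres. The short-telomere valves labelled wild type were the low group, and the remaining groups lay within 15.6 and 34.7 FPKM. The authors' deposited table called it higher in the short-telomere valves labelled heterozygous than in those labelled wild type. The plain FPKM ratio was 10.6 and the log2 fold 3.06. The log2 fold with long telomeres was 0.47. Tcf21, which marks fibroblasts that come from the epicardium, was likewise lowest there, at 20.1 and 1.01 FPKM in the short-telomere valves labelled heterozygous and wild type, against 12.3 and 26.2 FPKM in the long-telomere heterozygous and wild type valves. Tcf21 is 1 of 8 mesothelial and epicardial markers. For the Notch1 labels with short telomeres 2 of the 8 were higher in the group labelled heterozygous, Tcf21 and Tbx18, and 6 were lower, with a median log2 fold of -1.02. An antisense gene overlaps 10.6% of the exon bases of Adamts8 in GRCm38, and its share of the reads was not tested.

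Adamts15, next to Adamts8 on chromosome 9, had its low value in the same group and its high value in another. It was at 2.13 and 0.754 FPKM in the short-telomere valves labelled heterozygous and wild type, and at 3.36 and 9.81 FPKM in the long-telomere heterozygous and wild type valves. Its log2 fold of -2.62 for short telomeres in the groups labelled wild type was not called. Adamts1, a versican-cleaving enzyme, was highest where Adamts8 was lowest, at 31.9 and 55.3 FPKM in the short-telomere valves labelled heterozygous and wild type and 20.6 and 21.8 FPKM in the long-telomere heterozygous and wild type valves. Its neighbour on chromosome 16, Adamts5, whose loss in mice leaves uncleaved versican and enlarged valves, was at 6.06 and 7.76 FPKM in the short-telomere valves labelled heterozygous and wild type, and at 3.63 and 9.96 FPKM in the long-telomere heterozygous and wild type valves. Adamts9, another versican-cleaving enzyme, ranged from 2.35 to 5.8 FPKM, highest in the short-telomere valves labelled heterozygous. Exons of A730049H05Rik and Gm15737 on the opposite strand overlap 9.18% and 2.82% of its exon bases in GRCm38. Adamts4 stayed under 2 FPKM and Adamts20 under 0.5 FPKM.

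The procollagen N-proteinases Adamts2, Adamts3 and Adamts14 trim the ends of fibrillar procollagens. All 3 were lower with short than with long telomeres in both Notch1 labels as deposited, by less than 2-fold on the log2(FPKM + 1) scale. Adamts2, the most abundant, was at 9.82 and 11.6 FPKM in the short-telomere valves labelled heterozygous and wild type and at 10.8 and 17.5 FPKM in the long-telomere heterozygous and wild type valves. Adamts14 stayed under 1 FPKM and Adamts3 reached 1.09 FPKM at most. With the groups scaled to a median fold of 0, the direction turned for Adamts2 in the groups labelled heterozygous (0.11) and for Adamts3 in those labelled wild type (0.10).

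The other Adamts genes shared their highest group with 1 exception. Of the 7 genes 6, all but Adamts13, were highest in wild type valves with long telomeres, and their sum was 14.9 and 17 FPKM in the short-telomere valves labelled heterozygous and wild type, against 29.1 and 85.3 FPKM in the long-telomere heterozygous and wild type valves. Their median log2 fold for both labelled changes against neither was -2.17, where it was -0.16 for all genes. Adamts19, a protease whose loss causes heart valve disease in humans, stood at 0.528 and 2.7 FPKM in the short-telomere valves labelled heterozygous and wild type, against 3.45 and 12.5 FPKM in the long-telomere heterozygous and wild type valves. It was lower in the group labelled heterozygous than in that labelled wild type within each telomere setting, and lower with short than with long telomeres for each Notch1 label. Adamts19 fell with both labelled changes against neither, with a log2 fold of -3.14 and a call in the authors' deposited table. On the plain FPKM ratio this was 23.7-fold, down to 0.528 FPKM.

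Adamts17 and Adamts10 are related proteases linked to fibrillin microfibrils, and mutations of either cause Weill-Marchesani syndromes in humans. Adamts17 was at 0.108 FPKM in the short-telomere valves labelled heterozygous and listed at 0 in those labelled wild type, against 0.751 and 4.82 FPKM in the long-telomere heterozygous and wild type valves. It fell with short telomeres in the groups labelled wild type in the authors' deposited table, and no fold is given against a listing at 0. Adamts10 was at 10 and 7.29 FPKM in the short-telomere valves labelled heterozygous and wild type, and at 15.7 and 48.6 FPKM in the long-telomere heterozygous and wild type valves. It was not called, although its log2 fold was -2.58 for short telomeres in the groups labelled wild type. Adamts12, which with Adamts7 cuts cartilage oligomeric matrix protein, was at 0.634 and 2.44 FPKM in the short-telomere valves labelled heterozygous and wild type and at 2.01 and 6.35 FPKM in the long-telomere heterozygous and wild type valves. Adamts6 and Adamts7 had their highest values, 6.33 and 6.68 FPKM, in the same wild type group. Adamts13, the plasma enzyme that cuts von Willebrand factor, stayed under 0.2 FPKM in every group.

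The summed smooth muscle markers and the summed mesothelial and epicardial markers were also highest in the wild type valves with long telomeres. The 10 smooth muscle markers summed to 625 and 668 FPKM in the short-telomere valves labelled heterozygous and wild type, against 372 and 1321 FPKM in the long-telomere heterozygous and wild type valves. The 8 mesothelial and epicardial markers summed to 33.5 and 28.4 FPKM in the short-telomere valves labelled heterozygous and wild type, against 30.4 and 84.6 FPKM in the long-telomere heterozygous and wild type valves. Against wild type valves with long telomeres, 2 of the 10 genes listed as smooth muscle markers, Des and Casq2, were higher in short-telomere valves labelled heterozygous. Casq2 was also higher in heterozygous valves with long telomeres, at 77.3 against 33.5 FPKM. The summed heart muscle markers were likewise highest in the groups labelled heterozygous, at 6696 FPKM with short and 5320 FPKM with long telomeres. Of the 8 mesothelial and epicardial markers, Upk1b was higher in both short-telomere groups. It was at 4.03 and 4.15 FPKM in those labelled heterozygous and wild type, against 3.35 FPKM in long-telomere wild type valves. None of these 18 markers was listed at 0 in any group, and their defining genes Myh11, Cnn1 and Myl9 and Msln, Upk3b and Upk1b were all measured. For short against long telomeres in the groups labelled heterozygous, 8 of the 10 smooth muscle markers were higher, with a median log2 fold of 0.53. The 8 mesothelial and epicardial markers were split, 4 higher and 4 lower. All 7 other Adamts genes were lower in that comparison, with a median of -0.66. Platelet markers were also highest in wild type valves with long telomeres, at 3229 FPKM. The part of all these cells in the Adamts levels was not tested.

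The Adamts-like proteins have no protease domain, and several of them bind microfibrils. Adamtsl5 was the one with the widest range, at 12.7 and 9.51 FPKM in the short-telomere valves labelled heterozygous and wild type, and at 16.2 and 33.3 FPKM in the long-telomere heterozygous and wild type valves. Adamtsl2, which is mutated in geleophysic dysplasia in humans and is linked to fibrillin-1, was at 5.91 and 6.17 FPKM in the short-telomere valves labelled heterozygous and wild type and at 9.79 and 15.4 FPKM in the long-telomere heterozygous and wild type valves. Adamtsl4 had a different order, at 8.97 and 26.5 FPKM in the short-telomere valves labelled heterozygous and wild type and 12.5 and 20.7 FPKM in the long-telomere heterozygous and wild type valves. Adamtsl3 varied least, from 10.1 to 17.5 FPKM, and Adamtsl1 was under 3 FPKM throughout. All 5 were lower in heterozygous than in wild type valves with long telomeres, by less than 2-fold each on the log2(FPKM + 1) scale, and none was called in any comparison.

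Counted over all 44 genes with a 2-fold difference on the log2(FPKM + 1) scale, the Notch1 genotypes with long telomeres gave 1 gene higher in heterozygous valves (Timp4) and 8 lower. Of all genes 10.9% were higher and 7.53% lower by that measure. The 8 were Adamts5, Adamts10, Adamts12, Adamts15, Adamts17, Adamts19, Mmp19 and Mmp28. The median log2 fold of the 44 was -0.37, beside 0.09 for all genes, and 31 of 44 were lower. With short telomeres 3 were at least 2-fold higher in the group labelled heterozygous (Adamts8, Mmp13 and Timp1) and 7 lower (Adamts12, Adamts19, Adamtsl4, Mmp8, Mmp9, Mmp11 and Mmp28), beside 12.5% and 10.8% of all genes. The median of the 44 with short telomeres was 0.02, beside 0.06 for all genes. In heterozygous and wild type valves with long telomeres, T cell markers summed to 1028 and 113 FPKM and platelet markers to 124 and 3229 FPKM. The part of such cells in these counts was not tested.

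For short against long telomeres in the groups labelled wild type, 6 of the 44 were at least 2-fold higher and 13 lower, beside 8.9% and 20.9% of all genes. The median was -0.22, beside -0.23 for all genes, and with a median fold of all genes set to 0 the counts were 8 higher and 8 lower. In the groups labelled heterozygous 5 were higher and 2 lower, beside 4.71% and 16.8% of all genes, with a median of 0.17 beside -0.24. With both labelled changes against neither 6 were higher and 12 lower, beside 7.48% and 17.2%, with a median of -0.26 beside -0.16. These comparisons share groups, so that a single group enters several of them. Wild type valves with long telomeres were the highest group for 18 of the 44 genes, 40.9%, beside 28.5% of all genes. Heterozygous valves with long telomeres were the highest for 5 members, 11.4%, beside 33.3% of all genes, and the lowest for 14 members, 31.8%, beside 11.1% of all genes. That group also had the highest sum of T cell markers, 1028 FPKM, and the lowest sum of platelet markers, 124 FPKM. The part of such cells in these counts was not tested.

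The Notch1 fold with short telomeres minus that with long telomeres was positive for 27 of the 44 genes and negative for 17, with a median of 0.27 beside 0.00 for all genes. It was at least 1 on the log2 scale for 9 genes, where 16.5% of all genes were, and at most -1 for 2, where 17.4% were. The 2 were Mmp8 and Mmp9, at -1.92 and -2.81. The 9 were led by Adamts8 (2.59), Mmp13 (2.42), Adamts15 (2.15) and Adamts10 (1.98). Of these 9, Adamts10, Adamts15, Adamts17, Adamtsl5, Mmp13 and Mmp25 were lower in the heterozygous than in the wild type group with long telomeres. With short telomeres the same genes were higher in the group labelled heterozygous than in that labelled wild type. For Adamts17 and Mmp25 the short-telomere order rested on very low values. These were 0.108 FPKM against a listing at 0 for Adamts17, and 0.145 against 0.0335 FPKM for Mmp25. No test of these differences was possible with 1 value per group.

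**Figure D5:**
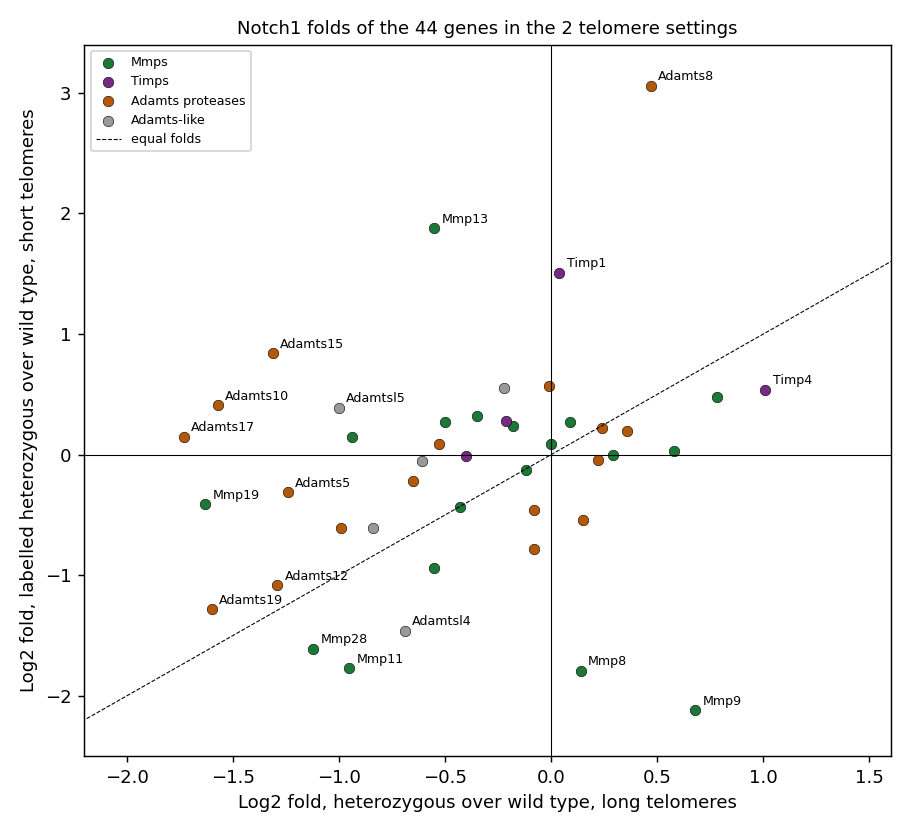
Log2 fold for the Notch1 labels with long telomeres (horizontal axis) and with short telomeres (vertical axis) for each of the 44 genes, with a dashed line where both folds are equal. Adamts8, Mmp13 and Adamts15 lie well above the line and Mmp8 and Mmp9 well below it, while Adamts19, Adamts12 and Mmp28 are low in both settings.

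Of 17 measured activators and further inhibitors of these proteases 0 were called in the 5 comparisons of the authors' deposited table. Pcsk6, a proprotein convertase, was at 8.25 and 17.2 FPKM in the short-telomere valves labelled heterozygous and wild type, and at 4.25 and 9.37 FPKM in the long-telomere heterozygous and wild type valves. Papln, papilin, which shares domains with Adamts proteins, was highest in the short-telomere valves labelled heterozygous at 5.77 FPKM and lowest in heterozygous valves with long telomeres at 0.96 FPKM. Hpn, the membrane protease hepsin, stayed under 3 FPKM.

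Among 19 measured substrates and partners, Acan alone was called. Acan, the proteoglycan aggrecan that Adamts4 and Adamts5 cut, fell with short telomeres in the groups labelled wild type in the authors' deposited table, to 0.0521 FPKM against 3.72 FPKM with long telomeres. In the groups labelled heterozygous it was at 1.57 FPKM with short and 0.449 FPKM with long telomeres. Versican, Vcan, the main Adamts substrate of the valve, was at 100.0 and 136 FPKM in the short-telomere valves labelled heterozygous and wild type, against 119.7 and 189 FPKM in the long-telomere heterozygous and wild type valves. Fbn2, fibrillin-2, a microfibril protein, was at 1.45 and 0.257 FPKM in the short-telomere valves labelled heterozygous and wild type and at 1.02 and 4.12 FPKM in the long-telomere heterozygous and wild type valves. Vwf, von Willebrand factor, was at 6.21 and 24.2 FPKM in the short-telomere valves labelled heterozygous and wild type, and at 5.17 and 23.7 FPKM in the long-telomere heterozygous and wild type valves. Col1a1, a chain of collagen I, was at 79.5 and 61.3 FPKM in the short-telomere valves labelled heterozygous and wild type, against 105 and 199 FPKM in the long-telomere heterozygous and wild type valves.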

How the data were processed

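Leaflet RNA was turned into complementary DNA with random and oligo-dT primers, amplified by a linear method that does not keep the strand, and sequenced in paired reads of 100 bp, per the labels' protocols. The submitters' processing notes name mm9 as the build, with TopHat, SAMtools, Picard and FastQC as tools. How expression was quantified and how calls were made is not given in the sources used here. Per the file headers, the deposited FPKM values number 1 for each gene in each group, so libraries were pooled or averaged and depth is unknown. A further 5 columns hold 0 or 1 and were read as the authors' calls. Columns 8 and 9 share a header; each was assigned to the pair of groups that alone differed at least 4-fold in every called gene, so column 8 is taken as the Notch1 comparison with long telomeres and column 9 as that with short.

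Log2 folds were computed here with a pseudocount of 1 and no filter, all groups as deposited. With 1 value per group no test, error or left-out library is possible. Counting was tested on simulated data. Members and lists were chosen with earlier results of these data known. Named members were those called, at 10 FPKM or more in a group, or at least 4-fold different in a comparison (27 of 44). Other members were named after their values were seen. From the lists of activators and substrates, called genes and the 4 widest ranges were named, with 1 gene not reported here; Vcan and marker genes were added after their values were seen. Marker lists for T cells, platelets and further cells were computed too: T cell markers summed to 22.7 and 159 FPKM in the short-telomere groups labelled heterozygous and wild type and to 1028 and 113 FPKM in long-telomere heterozygous and wild type valves, platelet markers to 405, 2080, 124 and 3229 FPKM in the same order, and endothelial markers to 621, 502, 326 and 388 FPKM. All 44 members were matched by identifier to GENCODE on GRCm38 for overlaps and neighbours, and 30 to RefSeq promoter windows. The work used pandas 2.3.3 with numpy 2.4.6 under Python 3.11.15, and figures were drawn with matplotlib 3.10.9.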

Additional observations from a re-analysis of the deposited data

How the results depend on the processing

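No paired analysis was possible because the table has 1 pooled value per group, and for the same reason no replicate could be left out. The 6 called members with a fold kept their direction under each alternative. With a pseudocount of 0.1 the members past 2-fold were 5 higher and 13 lower for the Notch1 genotypes with long telomeres, 7 higher with short telomeres, and 10 lower for short telomeres in the groups labelled heterozygous, since genes with low values then count more. Among genes with a mean of at least 1 FPKM, 1 member was lower in that last comparison, and 9 had a negative difference between the Notch1 folds. With the median fold of all genes set to 0, 0 members were higher and 12 lower for the Notch1 genotypes with long telomeres, 8 higher and 8 lower for short telomeres in the groups labelled wild type, and 7 higher and 1 lower in those labelled heterozygous. That scaling turned the sign of 13 of 213 single folds, and leaving mitochondrial genes out of the total turned 2. Past 4-fold, 0 and 0 members were higher and lower for the Notch1 genotypes with long telomeres, 1 and 1 with short telomeres, 4 and 3 for short telomeres in the groups labelled wild type, 1 and 0 in those labelled heterozygous, and 2 and 4 for both labelled changes against neither. The median of the members changed sign with the median fold of all genes set to 0 for the Notch1 labels with short telomeres (-0.04) and for short telomeres in the groups labelled wild type (0.01). Depth is unknown, so values under 1 FPKM carry an unknown counting error.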
